A study of Mus musculus with 6 samples.

Results

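Fibroblast sub-cluster 6 was 1 of 9 groups into which the deposited annotation divided the fibroblast cells of cultured mouse choroid, and its members were taken as every cell carrying that number, whatever its cell type name. It held 477 of 25428 cells, or 477 of the 23256 cells with a fibroblast sub-cluster (2.05%). The choroid, with the retinal pigment epithelium (RPE) attached, had been dissected from male C57BL/6J mice aged 12 to 16 months, dissociated with papain and cultured before capture on the 10x 3′ v2 platform. There were 3 Dram2 wt/wt and 3 Dram2 ko/ko samples. The ko allele was a constitutive CRISPR/Cas9 deletion of 1 exon of Dram2, a lysosomal membrane protein gene linked to autophagy, so every cell type of the ko/ko mice carried it. Each sample had 96808998 to 122746184 UMIs (unique molecular identifiers, 1 per captured RNA molecule) over all its cells, and the 6 samples held 91, 44 and 92 (wt/wt) and 39, 67 and 144 (ko/ko) cells of sub-cluster 6. Only ko/ko replicate 3 came from the second batch that the labels name. The sources used here do not say whether 1 sample was 1 animal, so p-values measure the spread between these samples, which may be technical.

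In a fibroblast, the transcripts of the mitochondrial chromosome lie inside mitochondria, long non-coding RNAs such as Malat1 stay in the nucleus, and mRNAs of secreted and membrane proteins are translated on the endoplasmic reticulum. Most other mRNAs, among them those of ribosomal proteins, are translated on free ribosomes in the cytosol. Choroidal fibroblasts make the collagens, laminins and matricellular proteins of the choroidal stroma.

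Sub-cluster 6 stood apart by its depth and by its mitochondrial RNA. The median cell had 4766 UMIs from 1882 genes, against 24935 UMIs from 5850 genes in sub-clusters 1 to 4 together, which held 21492 cells. In the 6 samples the median was 4769, 5188 and 4788 UMIs (wt/wt) and 8934, 3752 and 4774 UMIs (ko/ko), and it was 4.48 to 6.69 times lower than that of sub-clusters 1 to 4 of the same sample. A median of 21.0% of the UMIs came from the mitochondrial chromosome (quartiles 14.2% and 28.4%), whereas the median over the cells of sub-clusters 1 to 4 was 2.84%. The median share per sample was 19.7%, 19.9% and 21.5% in wt/wt and 17.1%, 20.9% and 21.3% in ko/ko, so that each sample showed both features. The overlap with other cells was small but present, since 56 members had under 10% mitochondrial UMIs and 129 of the 21492 cells of sub-clusters 1 to 4 had 10% or more. In the scatter of depth against mitochondrial share, sub-cluster 5 had a similar depth (median 5856 UMIs) with a share of 2.08%, and sub-cluster 8 lay at 3150 UMIs with 91.1%. Nothing between sub-clusters was tested, because the cells had been clustered on the expression of all these genes, and the values are a description.

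**Figure D1:**
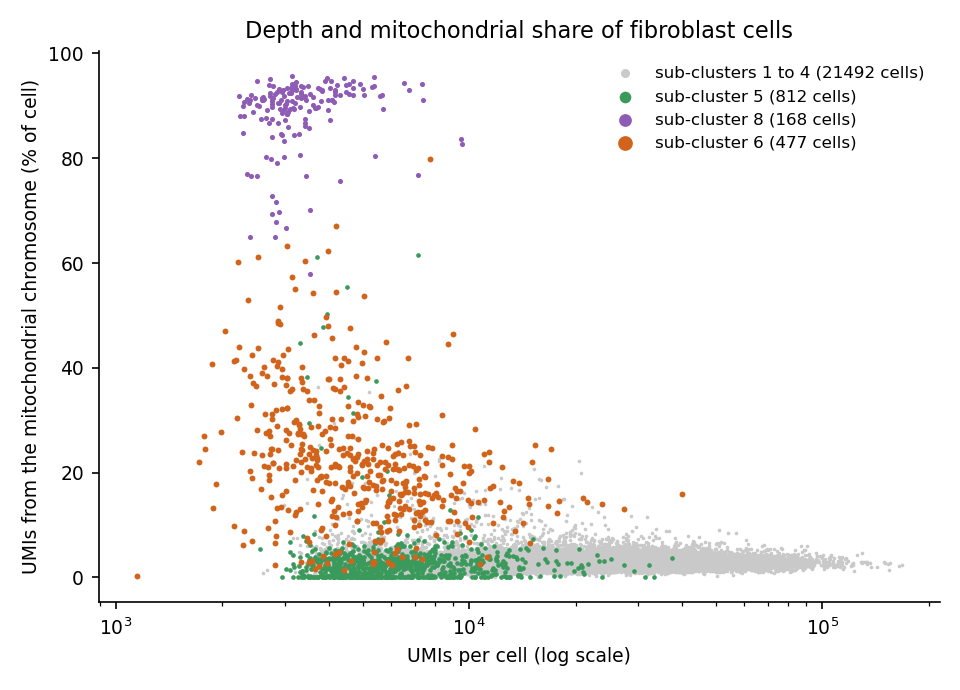
UMIs per cell (log scale) against the percentage of UMIs from the mitochondrial chromosome, 1 point per cell, for sub-cluster 6, sub-clusters 1 to 4 together, sub-cluster 5 and sub-cluster 8. Cells of sub-cluster 6 lie around 4766 UMIs and 21.0%, between sub-cluster 5 (2.08%) and sub-cluster 8 (91.1%) and above sub-clusters 1 to 4 (2.84%).

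The fibroblast name was checked against markers. The 13 fibroblast markers summed to 8554 to 10557 CPM (counts-per-million, a gene's UMIs scaled to the UMIs of that sample's cells in the sub-cluster) in the 6 samples, against 10162 to 11676 CPM in sub-clusters 1 to 4, and Dpt was the marker without a UMI. Among the 10 genes that led sub-cluster 6 by ratio, 9 were mitochondrially encoded, the other one was Aqp1, and none was a fibroblast marker, while the median depth of all cells of the sample was 4.39 to 6.25 times higher. That ranking is against other cells of the fibroblast annotation, so it cannot decide the fibroblast label. The label is kept as the annotation's word only, and the cells are called by their number. Markers of several other lineages were at or near 0. All 5 erythrocyte markers had no UMI, the melanocyte list summed to at most 8.25 CPM with Mlana, Tyr, Tyrp1, Dct and Pmel at 0, the RPE list to at most 15.1 CPM with Rpe65, Krt8, Krt18 and Otx2 at 0, the photoreceptor list to at most 3.69 CPM, and the T cell list to at most 2.34 CPM. The myeloid list summed to 9.62 to 35.1 CPM with Ptprc, Adgre1 and Aif1 at 0, and the Schwann list to 4.68 to 18.4 CPM with Sox10 at 0. Other lists were not low. The endothelial list was at 331 to 483 CPM against 370 to 515 CPM in sub-clusters 1 to 4, mostly through Emcn (379 and 390 CPM), with Cldn5 at 0. The skeletal muscle list summed to 93.6 to 135 CPM against 150 to 188 CPM with Pax7, Myod1 and Myog at 0. The osteoblast list summed to 1374 to 3163 CPM against 2622 to 3910 CPM with Bglap, Ibsp and Dmp1 at 0, the Muller glia and neuron list to 419 to 553 CPM against 604 to 876 CPM with Snap25 at 0, and the trabecular meshwork and keratocyte list to 276 to 411 CPM against 531 to 656 CPM. The pericyte and chondrocyte lists were higher than in sub-clusters 1 to 4, at 343 to 438 CPM against 136 to 202 CPM and at 255 to 524 CPM against 197 to 247 CPM, the latter with Acan, Col9a1, Hapln1 and Snorc at 0. The part of other cell types in the results was not tested beyond these levels. Scrublet called no member a doublet, which says little, since it called only 7 cells in all and the members were shallow.

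Of 9691 genes with 10 CPM or more in sub-cluster 6 or in sub-clusters 1 to 4, 1147 (11.8%) were higher in sub-cluster 6 than in each of sub-clusters 1 to 4 in all 6 samples, and 2798 (28.9%) were lower than in each in all 6. The median log2 ratio of the sub-cluster 6 mean to the mean of sub-clusters 1 to 4 (on log2 of CPM plus 1, used throughout) was -0.24 over these genes. This shift depended on the scale, since with CPM of the nuclear-encoded UMIs only the median was 0.022, with 1699 genes higher and 2079 lower. Against only the shallow cells of sub-clusters 1 to 4 (1662 cells with under 8000 UMIs), whose small sums are noisier, 234 genes were higher and 491 lower. After thinning each cell to 5000 UMIs 576 were higher and 1966 lower.

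The mitochondrially encoded mRNAs, which specify subunits of the respiratory chain and of ATP synthase, were the highest group. Of 13 on the list, 12 were higher than in each of sub-clusters 1 to 4 in all 6 samples, the exception being mt-Atp8 with a mean of 15.6 CPM, and the list's median log2 ratio was 2.66. Cytochrome b, mt-Cytb, had 53826 CPM in the lowest sample, 56209 CPM at the median and 68374 CPM in the highest, against 7945 to 10735 CPM in sub-clusters 1 to 4. mt-Nd4, a subunit of complex I, stood at 36383 ± 5341 CPM (SD, n = 6) against 5712 ± 1206. mt-Nd6, encoded on the opposite strand from the other mRNAs, had the largest log2 ratio of the 13, 3.38, with 427 ± 145 CPM against 40.1 ± 5.29. The 2 groups did not overlap for any of these 3 genes. mt-Atp6, mt-Co1, mt-Co2 and mt-Co3 have near-identical nuclear copies, so the split of their reads was uncertain.

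The nuclear long non-coding RNAs were the next group, and all 6 measured genes of the list of 7 were higher in all 6 samples, with a median log2 ratio of 2.29. Malat1 (ENSMUSG00000092341; chromosome 19, 5795690 to 5802672, minus strand, GRCm38), a transcript of nuclear speckles, had 71078, 58239 and 74305 CPM in wt/wt and 81121, 96585 and 51274 CPM in ko/ko. In sub-clusters 1 to 4 it ranged from 12731 to 19566 CPM. Neat1, the scaffold of paraspeckles, had 1537 ± 253 CPM against 365 ± 27.6. Meg3, Rian and Mirg, from the imprinted Dlk1-Dio3 region, were at 1807 ± 298, 160 ± 13.0 and 47.0 ± 12.1 CPM, against 341, 29.0 and 6.48 CPM. Kcnq1ot1, the imprinted antisense transcript of Kcnq1, had 597 ± 77.0 CPM against 132 ± 10.4. Sub-cluster 5, of similar depth, lay on the other side of sub-clusters 1 to 4, with a list median of -4.86 and 645 CPM of Malat1.

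Nuclear-encoded leading genes were largely those of secreted and cell surface proteins. Aqp1 (ENSMUSG00000004655; chromosome 6, 55336432 to 55348555, plus strand, GRCm38), a water channel, led them. It had 201, 213 and 92.8 CPM in wt/wt and 53.8, 29.5 and 415 CPM in ko/ko, against 9.60 to 29.6 CPM in sub-clusters 1 to 4. Its spread between samples, relative to its mean, was the widest among the 19 nuclear-encoded leading genes, and the lowest sample, at 29.5 CPM, lay within the range of sub-clusters 1 to 4 over samples while exceeding each of them in its own sample. The other leading genes included Itga5, the fibronectin receptor's alpha subunit, with 414 ± 80.2 CPM against 113 ± 16.4. They also included Hspg2, which encodes perlecan (516 ± 99.7 CPM against 153 ± 24.1), Mrc2, an endocytic collagen receptor (114 ± 36.6 CPM against 21.7 to 38.7 over the samples), and Plxnb2, a semaphorin receptor (507 ± 123 CPM against 141 ± 22.8). Lamb2, a laminin chain, and Ltbp2, a microfibril protein, were at 157 ± 31.9 and 1272 ± 207 CPM, against 43.5 and 418 CPM. Tmem132a, Pkd1, Pxdn, Thbs3, Cd248 and Ano8 had means of 52.2 to 180 CPM. Postn, a matricellular protein, was at 24.8 to 160 CPM against a mean of 17.8 in sub-clusters 1 to 4, but it was lower than the highest of them (log2 ratio -1.74) against their shallow cells alone. The exceptions without a hydrophobic stretch among the leading genes were Wdfy1 (95.2 ± 13.1 CPM against 24.2) and Snhg11, a small nucleolar RNA host gene (144 ± 49.2 CPM against 23.7).

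By list, 12 of 18 measured collagens were higher in all 6 samples and none was lower, with a median log2 ratio of 1.28. Col1a1, the main chain of type I collagen, had 2065, 2106 and 1732 CPM in wt/wt and 1923, 1286 and 1829 CPM in ko/ko. In sub-clusters 1 to 4 it ranged from 502 to 776 CPM, so the groups did not overlap. Col5a1, which regulates the width of collagen fibrils, was at 425 ± 83.1 CPM against 115 ± 23.8, and Col7a1, the collagen of anchoring fibrils, at 43.2 ± 12.4 CPM against 4.95 ± 0.572. The laminins, the trimers of basement membranes, had 6 of 7 genes higher and a median of 1.73, with Lamb1 at 677 ± 135 CPM against 230 ± 20.7. Of 27 matrix, crosslinking and matricellular genes 15 were higher and 0 lower (median 0.98). Among them Tnc had 3033 ± 699 CPM against 837 ± 144 and Thbs1 6329 ± 679 CPM against 2226 ± 298, both proteins that modulate cell adhesion. Of 16 integrin and adhesion genes 10 were higher and 0 lower (median 0.93), with Itgb1, the shared beta subunit, at 3579 ± 644 CPM against 1508 ± 84.3.

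Among other lists the median log2 ratio was 0.76 for cholesterol and fatty acid synthesis (8 of 15 higher), 0.70 for metalloproteinases and their inhibitors (6 of 15), 0.65 for IGF and its binding proteins (5 of 8), 0.41 for TGF-beta and BMP genes (5 of 19 higher, 3 lower) and 0.26 for lysosome genes (3 of 24 higher, 1 lower). The lysosome count, 3 of 24, was near the 11.8% of all genes that were higher. Not every list of secreted proteins had a median above 0 on this scale, since small leucine-rich proteoglycans stood at -0.28 (1 of 4 higher, 0 lower, 3 below 0). That median was near the -0.24 of all genes, a shift that depended on the scale. Nuclear-encoded UMIs were 80.0% of the total in sub-cluster 6 and 97.0% in sub-clusters 1 to 4. The inflammatory list, which mixes secreted, surface and intracellular proteins, stood at -0.44 (2 of 18 higher, 4 lower, 13 below 0). Its counts were near or below the shares of all genes. Of the pericyte markers, the surface proteins Mcam and Cspg4 were higher in all 6 samples (212 ± 50.3 CPM against 58.7, and 126 ± 29.1 CPM against 37.8), whereas Rgs5, a cytosolic regulator that defines pericytes, had 41.5 CPM against 50.5, and Higd1b and Vtn had no UMI. Pdgfrb, on the fibroblast list, was at 304 ± 53.7 CPM against 81.5 ± 14.9. The heat shock and unfolded protein list had 2 of 17 genes higher, 6 lower and a median of -0.56, shares near the 11.8% and 28.9% of all genes. Its chaperones of the endoplasmic reticulum, Hspa5 and Calr, were at 2986 ± 570 and 2761 ± 375 CPM against 1525 and 1410 CPM, and its cytosolic small heat shock protein Hspb1 was at 243 ± 86.6 CPM against 806 ± 223. Csf1 and Ptgs2 were the higher members of the inflammatory list (2010 ± 297 CPM against 897, and 3199 ± 318 CPM against 2009), and its lower members included Sod2 and Cxcl1. Ccl11, which encodes eotaxin, had a mean of 8.03 ± 7.11 CPM with 21.1 CPM in the highest sample, against 88.3 to 155 CPM in sub-clusters 1 to 4.

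The lower genes were mostly those of small cytosolic, nuclear and mitochondrial proteins. Fth1, the ferritin heavy chain, had 1035 CPM in the lowest sample, 1289 CPM at the median and 1931 CPM in the highest, against 6660 to 11114 CPM in sub-clusters 1 to 4. Rps27l, a ribosomal protein paralogue, was at 384 ± 89.9 CPM against 2173 ± 401, and Uqcc2, an assembly factor of respiratory complex III, at 60.5 ± 12.8 CPM against 328 ± 68.5. The other genes with the lowest ratios, at 14.3 to 141 CPM, were Polr2h, Cript, Elof1, Rnf7, Dph3, Bad, Med28, Grpel1, Mrpl30, Ppil3, Rpl32, Kti12, Mrps21, Kxd1, Lgals3, Bag1 and Taf12. Of 75 cytosolic ribosomal protein genes 51 were lower than in each of sub-clusters 1 to 4 in all 6 samples and 0 higher (median -1.34), although reads of many of these genes can be split with processed pseudogenes. Of 73 nuclear-encoded genes of the respiratory chain and ATP synthase 67 were lower and 0 higher (median -1.46), the opposite of the mitochondrially encoded subunits of the same complexes. Of 36 proteasome genes 31 were lower and 0 higher (median -1.39), and of 21 antioxidant and glutathione genes 12 were lower and 0 higher (median -1.31), among them Gpx1 at 310 ± 93.3 CPM against 1009 ± 72.9. Gabarap, a core protein of autophagosomes, was at 267 ± 55.2 CPM against 1324 ± 125, and 10 of 21 genes of the autophagy and DRAM list were lower and 2 higher (median -0.54). Cdkn1a, which encodes p21, was at 304 ± 55.5 CPM against 1110 ± 114, and 6 of 17 p53 targets and cell cycle inhibitors were lower (median -0.63), a share near the 28.9% of all genes. Smooth muscle contractile genes had a median of -0.71 without a gene past the rule in either direction, with Acta2 at 4037 ± 113 CPM against 9739 ± 701. These genes were not lower than in each of sub-clusters 1 to 4. Their mean share of UMIs was 1.06% in sub-cluster 6 and 3.11%, 2.33% and 1.99% in sub-clusters 1, 2 and 3. In sub-cluster 4 it was lower, at 0.652%, and the ranges over samples did not overlap (1.00% to 1.13% in sub-cluster 6, 0.548% to 0.706% in sub-cluster 4).

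The fibroblast list had a median of 0.71, with 3 of 12 genes higher and 1 lower, and the chondrocyte list one of 0.48, with 1 of 3 higher. These lists are small, and the counts of this paragraph are to be read against the 11.8% of all genes that were higher and the 28.9% that were lower. The interferon response stood at -0.29 (0 higher and 2 lower of 13), immediate early genes at -0.52 (5 of 18 lower), hypoxia and glycolysis at -0.50 (4 of 13 lower), both near that share, and periocular mesenchyme transcription factors at -0.53 (6 of 14 lower). Complement genes stood at 0.18 (0 of 4 in either direction) and Wnt ligands and regulators at 0.18 (1 of 7 lower). Mgp, the matrix Gla protein gene that is abundant in these cultures, had 2666 ± 615 CPM against 2762 ± 244, and Dcn, which encodes decorin, 451 ± 157 CPM against 468, 454 and 433 CPM in sub-clusters 1, 2 and 4 and 2465 CPM in sub-cluster 3.

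Counted per cell instead of as CPM, the groups differed in their ratio to sub-clusters 1 to 4. A cell of sub-cluster 6 had 1221 ± 427 mitochondrial UMIs (mean over samples ± SD, n = 6) against 956 ± 379 in sub-clusters 1 to 4, and the ratio within a sample was 1.14 to 1.70. It had 447 ± 223 UMIs of Malat1 against 528 ± 237, a ratio within samples of 0.57 to 1.16. Collagen UMIs were 33.1% to 49.7% of those in sub-clusters 1 to 4, integrin and adhesion UMIs 34.9% to 49.1%, and matrix UMIs 28.5% to 38.8%, where all UMIs together came to 16.4% to 23.5%. Cytosolic ribosomal protein UMIs came to 4.28% to 7.52%, or 49.6 ± 25.5 per cell against 835 ± 325, and those of the nuclear respiratory chain to a mean of 7.44%. The order of the first 2 groups, the 3 matrix and adhesion groups, all genes, and the 4 lowest groups was the same in every sample, and among the 4 lowest groups cytosolic ribosomal proteins lay below the nuclear respiratory chain and the smooth muscle genes within each of the 6 samples, although the ranges over samples overlapped. Thus the higher CPM of the collagens and integrins was a higher share of a smaller total, with fewer UMIs per cell than in sub-clusters 1 to 4. Fewer transcripts in a cell and a lower capture of them could not be told apart from these counts.

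**Figure D2:**
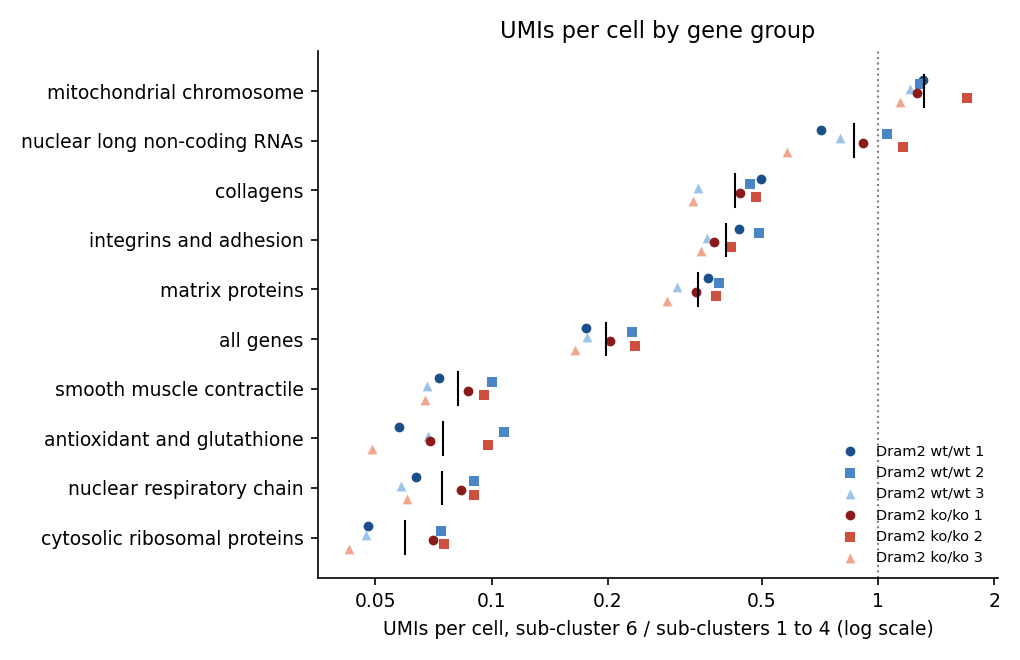
UMIs per cell of sub-cluster 6 divided by UMIs per cell of sub-clusters 1 to 4 of the same sample (log scale) for 10 gene groups, with 1 point per sample (blue, Dram2 wt/wt, and red, Dram2 ko/ko, a shape for each replicate number) and a bar at the mean. Mitochondrial transcripts lie at 1.14 to 1.70, nuclear long non-coding RNAs at 0.58 to 1.16, collagens at 0.33 to 0.50 and cytosolic ribosomal proteins at 0.04 to 0.08.

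A pair of transcript properties that the annotation did not use followed this order, the length of the mRNA and the class of the protein. Each protein was translated from the longest coding sequence of its gene in GENCODE M21 and put in 1 of 3 classes by Kyte-Doolittle hydropathy. A hydrophobic stretch of 10 residues within the first 35 (mean of 2 or more) stood for a signal peptide or anchor, a stretch of 19 residues further on (mean of 1.6 or more) for an internal membrane segment, and the rest had neither. The classes are approximate, but 20 of 22 collagens, 29 of 30 matrix genes and 21 of 24 lysosome genes fell in the first, and 72 of 79 ribosomal proteins and 24 of 26 transcription factors in the last. Over 8917 nuclear protein-coding genes the median log2 ratio was 0.34 for the N-terminal class (1514 genes), 0.13 for the internal class (1599 genes) and -0.55 for neither (5804 genes). Within each class it was higher for longer mRNAs. Of genes with neither stretch it was -1.53 under 1 kb (429 genes) and 0.19 over 6 kb (700 genes), and of the N-terminal class -0.77 under 1 kb (89 genes) and 0.86 over 6 kb (169 genes). In the latter, 43.8% of the genes were higher than in each of sub-clusters 1 to 4 in all 6 samples and 1.78% lower, against 0.233% and 77.6% of the short genes with neither stretch, where the background over the same 8917 genes was 8.93% and 29.3%. Across genes, which are not independent replicates, the Spearman correlation between mRNA length and the log2 ratio was 0.53, and 0.43 to 0.51 in the single samples. Of the 19 nuclear genes among the 30 leading genes, 15 were in the N-terminal class, with a median mRNA length of 5629 bases, and of the 20 lower genes 0 were, with a median of 1264 bases. Sub-cluster 5 had the reverse order, with a correlation of -0.50 and medians of 0.49 for the short genes with neither stretch and -1.87 for the long N-terminal genes.

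**Figure D3:**
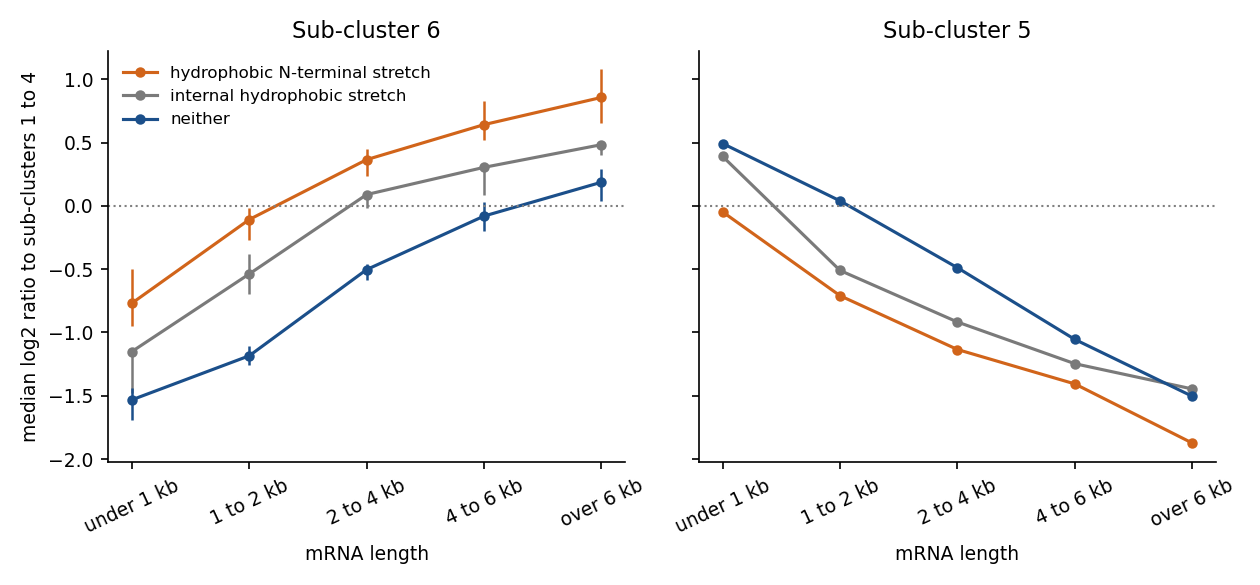
Median log2 ratio to sub-clusters 1 to 4 by mRNA length for 3 classes of protein in sub-cluster 6 (left) and sub-cluster 5 (right), with points for the ratio of means and, on the left, bars from the lowest to the highest median of the 6 samples. In sub-cluster 6 the medians run from -1.53 (neither, under 1 kb) to 0.86 (N-terminal, over 6 kb), and in sub-cluster 5 from 0.49 to -1.87 for the same groups.

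Members were next compared among themselves and with other cells of low depth or high mitochondrial share. Here all samples were pooled, levels were taken as CPM of the nuclear-encoded UMIs so that mitochondrial RNA could not dilute the rest, and the reference was the 19807 cells of sub-clusters 1 to 4 with 8000 or more UMIs and under 15% mitochondrial UMIs. The 56 members with under 10% mitochondrial UMIs already differed from the reference, with median log2 ratios of 2.08 for nuclear long non-coding RNAs, 1.31 for collagens and -0.68 for ribosomal proteins. In the 106 members with 30% or more, the nuclear long non-coding RNAs stood at 3.71 and the nuclear respiratory chain at -1.69, while integrins stood at 0.38 and matrix genes at 0.58, below the 1.38 and 1.39 of the members with 10% to under 20%. Depth within sub-cluster 6 made little difference to collagens and ribosomal proteins. The 71 members with 8000 or more UMIs had 1.52 and -1.21 for these lists, and the 406 shallower ones 1.62 and -1.11. Nuclear long non-coding RNAs stood at 2.34 and 2.73 in the same cells, whose median mitochondrial shares were 15.2% and 21.7%. Cells of sub-clusters 1 to 4 that were shallow but not rich in mitochondrial RNA (1640 cells, median 5660 UMIs) stood at 0.31, 0.05 and -0.05 for nuclear long non-coding RNAs, collagens and ribosomal proteins, and at -0.30 for the proteasome. Across genes their log2 ratio nevertheless had a Spearman correlation of 0.41 with mRNA length, against 0.54 in sub-cluster 6 on this scale, while the range of their medians was smaller, from -0.055 for genes under 1 kb with neither stretch to 0.20 for N-terminal genes over 6 kb (the latter at 1.13 in sub-cluster 6). The 45 cells of sub-clusters 1 to 4 with 15% or more mitochondrial UMIs (median 8200 UMIs) stood at 2.03, 1.53 and -0.78. The cells of sub-cluster 8, with the highest mitochondrial share, stood at 1.15, -0.57 and -0.48 for the same lists and at -0.82 for matrix genes, with a correlation of 0.074 with mRNA length. In the RPE cells of the same samples, Malat1 made up 3.48% of nuclear-encoded UMIs in the 30 cells with 15% or more mitochondrial UMIs and 1.22% in the other 1462, and ribosomal proteins 1.87% and 2.89%. The part that cell state before capture or handling played in these values was not tested.

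**Figure D4:**
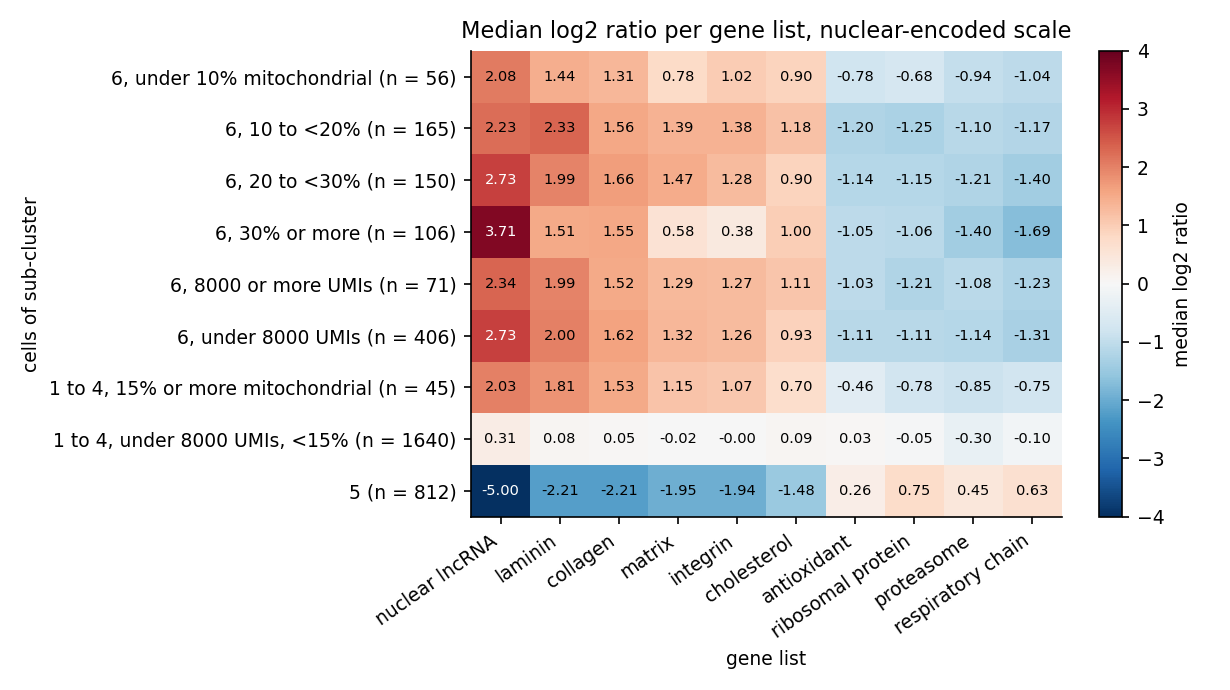
Median log2 ratio per gene list (columns) in subsets of sub-cluster 6 and in other cells (rows, with the number of cells), as CPM of the nuclear-encoded UMIs pooled over samples, against cells of sub-clusters 1 to 4 with 8000 or more UMIs and under 15% mitochondrial UMIs. All 6 subsets of sub-cluster 6 and the 45 cells of sub-clusters 1 to 4 with 15% or more share the signs, shallow cells of sub-clusters 1 to 4 lie between -0.30 and 0.31, and sub-cluster 5 has the opposite signs.

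The members carried 4 cell type names. There were 193 named Fibroblast, 115 Fibroblast proliferating, 168 Fibroblast-like and 1 Fibroblast 2, and each of the first 3 names occurred in all 6 samples. The Fibroblast-like members were shallower and richer in mitochondrial RNA (median 3208 UMIs and 31.0%) than those named Fibroblast (5884 UMIs and 16.9%) or Fibroblast proliferating (5871 UMIs and 17.4%), and they were 168 of all 1121 cells of that name. Malat1 took 17.8% of their nuclear-encoded UMIs, against 7.44% and 5.31%. Top2a, the topoisomerase of dividing cells, was at 363 CPM in the members named Fibroblast proliferating, 27.8 CPM in those named Fibroblast and 99.4 CPM in the Fibroblast-like members, which compared with 393 and 9.46 CPM for the proliferating and Fibroblast names in sub-clusters 1 to 4. The names had been given from the expression of these cells, so these levels are a description. Cells were counted as cycling with 2 or more UMIs of Mki67 and Top2a after thinning to 8000 UMIs, which left 71 members and set 406 aside. Of those 71, the cycling share was 35.3%, 28.6% and 27.3% in wt/wt (of 17, 7 and 11 cells). In ko/ko replicates 1 and 3 it was 30.4% and 53.8% (of 23 and 13 cells), and ko/ko replicate 2 had no member deep enough. The mean share was 69.6% in sub-cluster 2 and 0.310% to 0.930% in sub-clusters 1, 3 and 4, so sub-cluster 6 held cycling and non-cycling cells together. Over all 477 members, with neither thinning nor the minimum of 8000 UMIs, the mean share was 19.7%. By that count it was 89.1% in sub-cluster 2 and 1.71% to 7.31% in sub-clusters 1, 3 and 4. The unthinned count depends on depth, since sub-cluster 1 stood at 0.930% with thinning and 7.31% without. The members were shallower than those cells, so their unthinned share is not on an equal footing. By list, G2/M genes had a median log2 ratio of -0.32 (0 of 27 in either direction, and a median of 0.084 against shallow cells alone) and S phase genes -0.56 (1 of 23 lower). The G2/M count says little, since a mixture of cycling and non-cycling cells lies between sub-cluster 2 and the other 3. Mki67, for example, was at 39.4 CPM in sub-cluster 6, 102 CPM in sub-cluster 2 and 0.677 to 1.29 CPM in sub-clusters 1, 3 and 4. The G2/M median also depends on how many cells of sub-cluster 2 the reference holds.

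The comparison of genotypes asked whether loss of Dram2 changed the size or the expression of sub-cluster 6. Its share of the fibroblast cells was 2.53%, 1.11% and 2.26% in wt/wt and 1.92%, 1.05% and 4.44% in ko/ko (means 1.97% ± 0.754 and 2.47% ± 1.76, SD, n = 3 each). The groups overlapped, and the difference of 0.503 percentage points had p = 0.9 in an exact two-sided permutation test, in which 3 against 3 samples cannot go below 0.1. The highest share, 4.44% (95% Wilson interval 3.78% to 5.20%, counting error only), was that of the sample of the second batch, and without it the difference was -0.481 points. The median depth (p = 0.9) and the median mitochondrial share (p = 0.8) did not separate the genotypes in the same exact test either. For the cycling share the 2 ko/ko values averaged 42.1% and the 3 wt/wt values 30.4% (exact p = 0.4, smallest possible 0.1), and without ko/ko replicate 3 the difference was 0.0554 points.

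**Figure D5:**
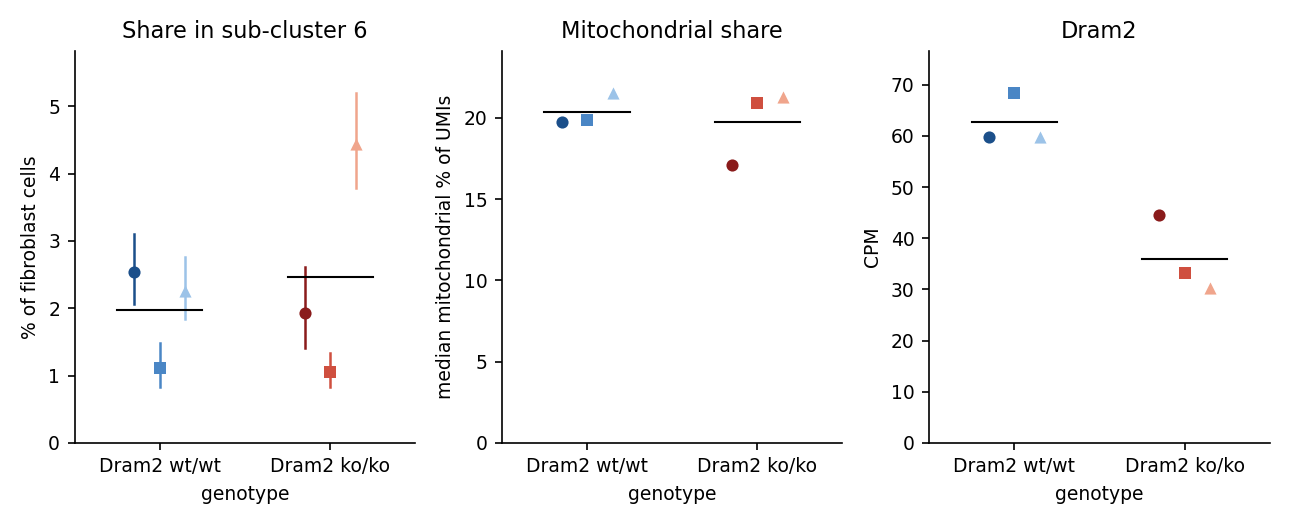
Share of fibroblast cells in sub-cluster 6 (bars, 95% Wilson intervals), median mitochondrial percentage of its cells and Dram2 level in CPM, with 1 point per sample and a line at the group mean. The shares of the genotypes overlap, mitochondrial medians lie at 17.1% to 21.5%, and Dram2 lies at 59.8 to 68.4 CPM in wt/wt and 30.2 to 44.4 CPM in ko/ko.

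Dram2 (ENSMUSG00000027900; chromosome 3, 106547798 to 106575890, plus strand, GRCm38) had 59.8, 68.4 and 59.8 CPM in the wt/wt and 44.4, 33.2 and 30.2 CPM in the ko/ko samples of sub-cluster 6, from 78 and 50 UMIs. The 2 groups did not overlap. The log2 fold change was -0.81 ± 0.27 (SE), which did not pass (adjusted p = 0.999, voom-limma with Benjamini-Hochberg adjustment over 6218 genes). Before adjustment p was 0.0065 (voom-limma), 0.0083 (edgeR's quasi-likelihood test) and 0.042 (DESeq2). By voom-limma it was 0.054 without ko/ko replicate 3, 0.057 with batch as a covariate and 0.095 with the cell filter described below. In sub-clusters 1 to 4 the log2 fold change was -0.29 ± 0.09. The difference between these changes, -0.55 ± 0.35, was not called (adjusted p = 0.999, voom-limma interaction over 19599 genes). The libraries read the 3′ ends of transcripts, so a level of Dram2 outside the deleted exon does not check the deletion. Over all genotypes, Dram2 had 49.3 ± 15.7 CPM in sub-cluster 6 against 28.5 to 40.8 CPM in sub-clusters 1 to 4.

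No gene was called between genotypes in sub-cluster 6 (0 of 6218, 0%; voom-limma at an adjusted p of 0.05). At an unadjusted 0.05 it listed 288 genes, and edgeR's quasi-likelihood test and DESeq2, which called 0 as well, listed 260 and 69. The sums behind this test held 263036 to 727562 UMIs per sample. In counts simulated at these depths, 91 of 100 genes changed 4-fold and 48 of 100 changed 2-fold were recovered, with 18 false calls among 6218 genes. The false calls were a larger share of all calls than the 0.05 set. The changed genes were drawn only from genes above a minimum mean count. Changes under 2-fold were not simulated. Genes that did not pass were named by smallest p among protein-coding genes with a mean of 50 CPM or more. They were Hspb1, Myh11 and Baz1b with higher means in ko/ko, and Rps20, Rps21 and Wdr89 with lower ones (adjusted p = 0.999 for each, voom-limma). Rps20 had 183, 274 and 177 CPM in wt/wt and 129, 125 and 63.2 CPM in ko/ko. In sub-clusters 1 to 4 it was lower in ko/ko too, at 250 against 711 CPM (log2 fold change -1.55, adjusted p = 0.0501, voom-limma). There Wdr89, Rps21 and Hspb1 also changed in the same direction (-1.31, -0.64 and 0.61), and Baz1b and Myh11 were at 0.10 and -0.20. In sub-cluster 6 Myh11, smooth muscle myosin, had 25.1, 53.2 and 35.1 CPM in wt/wt and 53.8, 51.6 and 133 CPM in ko/ko, and the groups overlapped. Dram1, Mki67, Top2a, Mgp and Dcn did not pass, with log2 fold changes of -0.55 ± 0.43, 0.81 ± 0.34, 0.06 ± 0.20, 0.05 ± 0.20 and -0.13 ± 0.28 (SE). List medians of log2 fold change were -0.02 for mitochondrially encoded, 0.00 for nuclear long non-coding, -0.10 for collagen and -0.10 for ribosomal protein genes, where the median over all genes was 0.00. The lysosome list stood at -0.15 with 19 of 23 genes below 0, integrins and adhesion at -0.12 with 12 of 15 below 0, and Wnt ligands and regulators at -0.33 with 3 of 3 below 0. Hypoxia and glycolysis stood at -0.18 with 8 of 9 below 0, the inflammatory list at -0.07 with 11 of 14 below 0, and the interferon response at 0.07 with 6 of 6 above 0. The fibroblast and antioxidant lists had 9 of 12 and 12 of 16 below 0. Over all genes 3111 of 6218 were below 0, genes measured in the same 6 samples are not independent, and no member of any list was called. Without ko/ko replicate 3, which leaves the first batch only, 2 genes were called. These were Tinagl1 and Olfml2b, named here after their values were seen, both lower in the 2 remaining ko/ko samples and both high in ko/ko replicate 3 (851 and 154 CPM). Genotype effects were not called as different between sub-cluster 6 and sub-clusters 1 to 4 (0 of 19599 genes, 0%, with 951 below an unadjusted 0.05), but edgeR's quasi-likelihood test called 3. In counts simulated for the interaction over 6218 genes, only 9 of 100 genes changed 2-fold and 88 of 100 changed 4-fold were recovered, so a 2-fold difference would mostly have been missed. The 3 genes were Myh11, Mir6236 and Serpinb2, also named after their values were seen, with interaction log2 fold changes of 1.35, 0.89 and -1.19.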

How the data were processed

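Choroid cells of 3 Dram2 wt/wt and 3 Dram2 ko/ko samples were sequenced with the 10x 3′ v2 kit. The authors aligned the reads to the mouse genome (GRCm38) and counted UMIs with Cell Ranger (3.1.0 in the submitters' processing notes), and deposited 1 table of UMI counts for 52636 genes and 25428 cells with a table of sample, cell type and sub-cluster per cell. The authors' methods for mouse cells name exonic reads, batch integration and Louvain clustering in Seurat. The values are raw counts per gene and cell. Gene symbols and positions came from GENCODE M21, where 52489 of the identifiers matched. The counting strand is not given in the sources used here, so whether overlapping and antisense genes share reads was not checked. The cell names hold no barcodes, so barcodes shared between libraries could not be counted.

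UMI counts were summed over the sub-cluster's cells in each sample and scaled to CPM. Ratios used means over samples with a pseudocount of 1 CPM. Genotypes were compared with voom-limma (R 4.3.3, limma 3.58.1, edgeR 4.0.16; filterByExpr, TMM, Benjamini-Hochberg over all genes, called at 0.05), and sample values with exact two-sided permutation tests (scipy 1.17.1). The interaction model had the sample as a factor. The fits were tested on simulated data. DESeq2 1.42.0 and edgeR's quasi-likelihood test were alternatives. Doublet scores came from Scrublet (scanpy 1.11.5), which called 7 cells in all, too few to have worked, so the 5% of cells with the highest scores per sample were left out as an alternative. No other cell filter was applied. A filter of 500 genes and at most 20% mitochondrial UMIs, tried as an alternative, removed 53.7% of the members.

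Genes were named by rule. Leading genes were the 30 protein-coding genes of 50 CPM or more, higher than in each of sub-clusters 1 to 4 in every sample, with the largest ratio to the highest of the 4. Lower genes were the 20, of 50 CPM or more in each of the 4 and lower in every sample, with the lowest ratio to the lowest of them. Dram2, Dram1, Mki67, Top2a, Mgp and Dcn were always named. In each direction with fewer than 3 called genes, the 3 protein-coding genes of 50 CPM or more with the smallest p were named. Of each gene list, members were named from the 4 with the highest mean and the 4 with the largest absolute log2 ratio. The members, the lists and the tests were chosen with earlier results of these data known. The lists of ribosomal protein, respiratory chain, proteasome and laminin genes were added after the values were seen. Aldoa, of the hypoxia list, was not matched. Some members of the lists are not reported here.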

Additional observations from a re-analysis of the deposited data

How the results depend on the processing

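The difference in share between genotypes ran from -0.481 to 1.21 percentage points when single replicates were left out. That in median UMIs ran from -652 to 1939 and that in median mitochondrial percent from -1.35 to 0.719, in exact permutation tests that cannot reach 0.05. The difference in cycling share ran from 0.0554 to 23.5 points. These ends leave ko/ko replicate 1 or ko/ko replicate 3 alone in its group and were not tested. The sign turned without ko/ko replicate 3 for the share (-0.481) and without ko/ko replicate 1 for the median UMIs (-652) and the mitochondrial percent (0.719), and the cause was not tested. Genes called between genotypes ranged from 0 to 2 over the replicates left out, with 2 without ko/ko replicate 3, and were 0 under each of the other alternatives run. Same-numbered samples deviated together by correlations of -0.023, 0.014 and 0.0093, and all wt/wt by ko/ko correlations lay between -0.031 and 0.026. No pairing by number was seen, but counting noise in such small sums could hide one. With the replicate block 0 genes were called, 253 had an unadjusted p under 0.05, and Dram2 was at -0.78. Dram2 stayed lower in ko/ko under every alternative run (-0.97 to -0.65 with single replicates left out, -0.64 with batch as a covariate, -0.61 with the cell filter) and never passed adjustment. For the interaction edgeR's quasi-likelihood test called 3 genes, against 0 otherwise. Thinning to 5000 UMIs, which leaves 19 to 67 members per sample, gave 576 genes higher than in each of sub-clusters 1 to 4. Reference cells with under 8000 UMIs, an alternative chosen after seeing the data, gave 234 higher and 491 lower from smaller sums, and turned Postn to -1.74 against the highest of the 4 and the G2/M median to 0.084. With CPM of the nuclear-encoded UMIs, also chosen after seeing the data, the median of all genes was 0.022. Over all alternatives, 1098 values of named genes and lists comprised 915 within 1 SD of the main value, 181 that moved further with the same sign and 2 that turned. Many could hardly move, since leaving out 1 replicate shifts a mean little and the Scrublet alternative removed no member. With the counts and median of all genes included, the shallow reference moved 44 values, turned 2 and left 31. The nuclear-encoded scale moved 29, turned 1 and left 35. Few UMIs per cell, 39 members in the smallest sample and 3 samples a group limit what could be detected.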
